A study of Mus musculus with 20 samples.

Results

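The genes described here are 10 components of protein folding in the endoplasmic reticulum (ER) and of the unfolded protein response, chosen by their gene names out of the 22660 rows of the count table. All 10 had a row, and all 10 passed the minimum of 10 counts in at least 5 mice in every comparison. Of these, 5 sit in the ER lumen and fold secreted and membrane proteins: Hspa5 (BiP), Hsp90b1 (GRP94), Pdia4, Calr and Creld2. Another 4 are transcription factors of the response, Xbp1, Atf4, Atf6 and Ddit3 (CHOP), and the last, Trib3, encodes a pseudokinase.

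The ER folds proteins that enter the secretory pathway, and when its load exceeds its folding capacity, BiP is drawn away from 3 membrane sensors named IRE1, PERK and ATF6. IRE1 splices the Xbp1 transcript into the form that encodes an active factor, ATF6 is cut in the Golgi to release a factor that acts on chaperone genes, and PERK phosphorylates eIF2α, which lowers general translation while the Atf4 transcript is translated more. ATF4 and CHOP act on genes of amino acid supply, redox balance and cell death, Trib3 among them. In skeletal muscle the ER is continuous with the sarcoplasmic reticulum, the calcium store of the fiber, while fibroblasts between the fibers carry a rough ER that handles collagen. Several of these regulatory steps act on splicing, cleavage, phosphorylation or translation, none of which gene-level counts measure, and the Xbp1 count does not separate its spliced form.

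RNA came from whole plantaris muscle of 20 old C57BL/6J male mice, aged 2 years in the labels, with 5 mice in each of 4 groups. In the vehicle MOV and D + Q MOV groups the plantaris underwent mechanical overload (MOV) for 14 days after part of its synergists, the soleus and gastrocnemius, had been removed on both sides, and the vehicle sham and D + Q sham groups had the skin opened only. D + Q mice were gavaged with the senolytic pair dasatinib, a tyrosine kinase inhibitor, at 5 mg/kg and quercetin, a plant flavonoid, at 50 mg/kg, and vehicle mice with the polyethylene glycol solution. Gavage fell on days 7 and 10 in the treatment protocol, but the series description gives day 14 as the second gavage of sham mice. No transgene or deletion was used, and the 4 groups were different animals seen at 1 time point. The comparisons ask how ER folding genes differ in old muscle under overload, and whether D + Q changes this.

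Totals lay between 17887532 and 26234518 counts per mouse. All 8 muscle fiber markers were above the count minimum, with a summed level of 133487 to 154375 CPM in vehicle sham mice and 75102 to 103922 CPM in vehicle MOV mice. CPM are counts relative to library size, scaled here by the trimmed mean of M-values (TMM). Muscles under MOV stood apart from sham muscles along the first principal component in both treatments, and vehicle MOV replicate 2 was the nearest of them to sham (a score of 27.4, against 45.8 to 69.3 in the other 4 vehicle MOV mice). Within groups, no pair of libraries was as alike as counting noise alone would leave it, so each was counted as 1 mouse.

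Of the 10 genes, 9 had a promoter in the RefSeq table (assembly GRCm38.p6), from 250 bases before to 50 bases after a transcription start, and Atf6 had none there. The table was searched on both strands for the ER stress response element (ERSE, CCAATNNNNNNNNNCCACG), which ATF6 and XBP1 are known to use together with the CCAAT-binding factor NF-Y. It was found in 39 of 32851 promoters (0.119%), and these included Hspa5, Hsp90b1, Calr and Creld2, 4 of the 5 folding genes. The element was chosen for its known use in this response, so finding it in such genes is a description and tests nothing. The promoters of Pdia4, Xbp1, Atf4, Ddit3 and Trib3 held no such letters in this window. The sites are shown because these 4 folding genes have them in common, each read in the CCAAT to CCACG direction with the defining letters in capitals and up to 5 bases on either side.
Hspa5: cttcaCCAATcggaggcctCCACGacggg
Hsp90b1, distal: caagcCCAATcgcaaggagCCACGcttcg
Hsp90b1, proximal: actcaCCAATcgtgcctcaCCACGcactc
Calr: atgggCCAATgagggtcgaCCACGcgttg
Creld2: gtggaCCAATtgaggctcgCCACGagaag

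Placed by exact match of the promoter in GRCm39, the Hspa5 element lies at chr2:34662037-34662055, plus strand, 65 to 47 bases before the RefSeq start and inside a 5′ untranslated exon of a longer annotated Hspa5 transcript. Hsp90b1 carries 2 elements, the distal at chr10:86541502-86541520, minus strand (212 to 194 bases before the start, in an untranslated exon of the neighboring Ttc41) and the proximal at chr10:86541397-86541415, plus strand (107 to 89 bases before, on the strand opposite the gene and inside an untranslated exon of a longer Hsp90b1 transcript). The Calr element at chr8:85573704-85573722, plus strand, and the Creld2 element at chr15:88703723-88703741, minus strand, are 162 to 144 and 126 to 108 bases before their starts, both on the strand opposite the gene and outside annotated exons. A match of letters describes the sequence and shows no binding in these muscles. The shorter ERSE-II (ATTGGNCCACG, in 0.0365% of promoters) and the C/EBP-ATF composite site (TGATGNAAT, in 0.965%) were found in none of the 9 promoters.

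Per kilobase of the canonical transcript, Atf4 had the highest level of the 10 genes in vehicle sham muscle, at 92.2 ± 7.27 CPM per kb (SD, n = 5), followed by Calr at 52.8 ± 1.79 CPM per kb. Hsp90b1 at 36.5 ± 0.963 and Hspa5 at 35.5 ± 3.40 CPM per kb came next and overlapped each other. Xbp1 had 25.7 ± 2.13, Ddit3 15.1 ± 2.24, Atf6 6.78 ± 0.338, Creld2 3.52 ± 0.584 and Pdia4 1.71 ± 0.157 CPM per kb, with no overlap between neighbors in that order. Trib3 was the lowest at 0.541 ± 0.144 CPM per kb, from 14 to 25 reads a mouse, so that its values carry the largest counting error of the 10. The order was the same in D + Q sham muscle.

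Under MOV the order changed. In D + Q MOV muscle Calr was first at 87.7 ± 9.18 CPM per kb and Atf4 second at 74.9 ± 9.68 CPM per kb, although their mice overlapped. Hsp90b1 and Hspa5 followed, each overlapping the gene above it. Creld2 (7.54 ± 0.891 CPM per kb) and Pdia4 (6.07 ± 0.937 CPM per kb) then stood above Atf6 (5.69 ± 0.461 CPM per kb), which had been above both in every sham mouse, and these 3 neighbors overlapped. In vehicle MOV muscle Atf4 and Calr overlapped at the top (83.7 ± 9.12 and 79.3 ± 10.5 CPM per kb), and Creld2, Atf6 and Pdia4 again overlapped in turn.

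**Figure D1:**
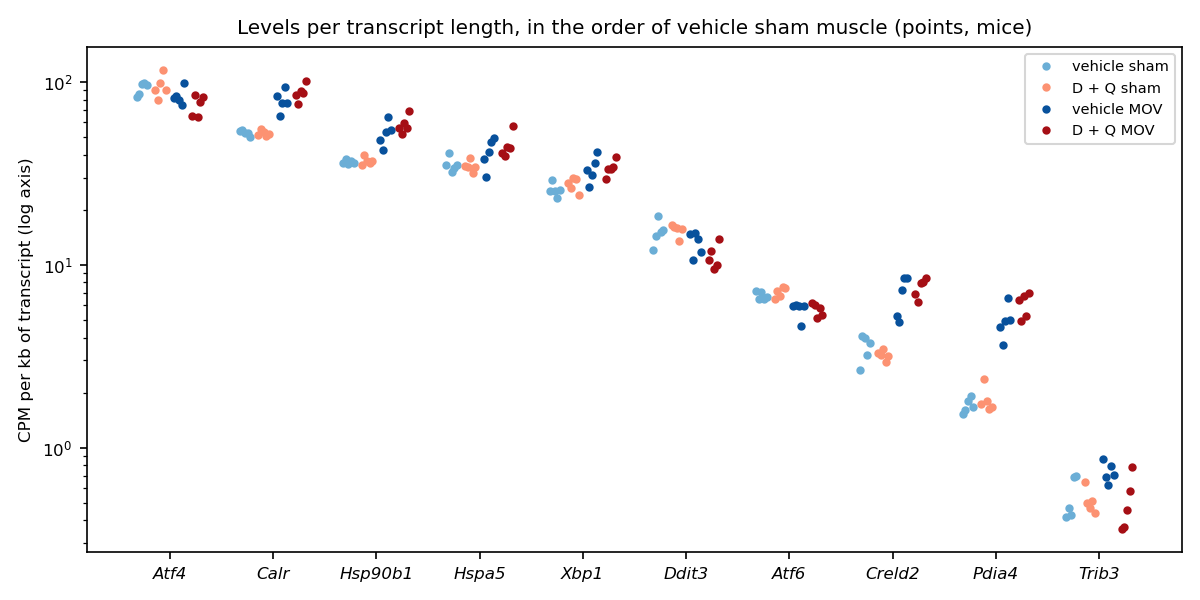
Level of each gene per kilobase of its canonical transcript (CPM per kb, logarithmic axis) in each of the 20 mice, colored by group and ordered by the level in vehicle sham muscle. Atf4 is first in sham muscle at 92.2 CPM per kb, and in D + Q MOV muscle Calr, at 87.7 CPM per kb, overlaps it.

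In overloaded muscle 4 of the 5 ER folding genes were higher in both treatments and Hspa5 with D + Q, and of the transcription factors Xbp1 alone was called higher with them. With vehicle, 5 of the 10 genes were higher in MOV than in sham muscle, namely Pdia4, Creld2, Calr, Hsp90b1 and Xbp1, and Atf6 was lower, by edgeR's quasi-likelihood test at an adjusted p under 0.05. Over all 14601 genes tested, 30.7% were called higher, 29.8% lower and 60.5% in either direction, so that a share of 6 in 10 is near the background and the direction and size of single genes carry the description. With D + Q, 6 genes were higher (the same 5 and Hspa5) and 3 were lower (Atf6, Atf4 and Ddit3), against 34.4% higher, 30.9% lower and 65.3% in either direction over 14913 genes. The median log2 fold change of the 10 genes was 0.43 with vehicle and 0.38 with D + Q, against -0.015 and 0.023 over all genes tested. When mice were scaled by total counts only, the median of all genes moved to 0.36 with vehicle and 0.39 with D + Q, 84.1% of calls with vehicle were higher instead of 50.8% and 83.5% of those with D + Q instead of 52.6%, and the genes described here split into 8 higher and 0 lower with vehicle and 6 higher and 0 lower with D + Q. In whole-muscle RNA, fewer cells of a type and less RNA per cell cannot be told apart.

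Groups that did not overlap gave a similar picture. With vehicle, all 5 MOV mice stood above all 5 sham mice for 4 genes (Hsp90b1, Pdia4, Calr and Creld2) and below them for Atf6, where 23.8% and 22.6% of all genes tested did so. With D + Q, this held for 5 genes upward (Hspa5 in addition) and again for Atf6 downward, where 26.5% of all genes tested did so upward and 26.5% downward.

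**Figure D2:**
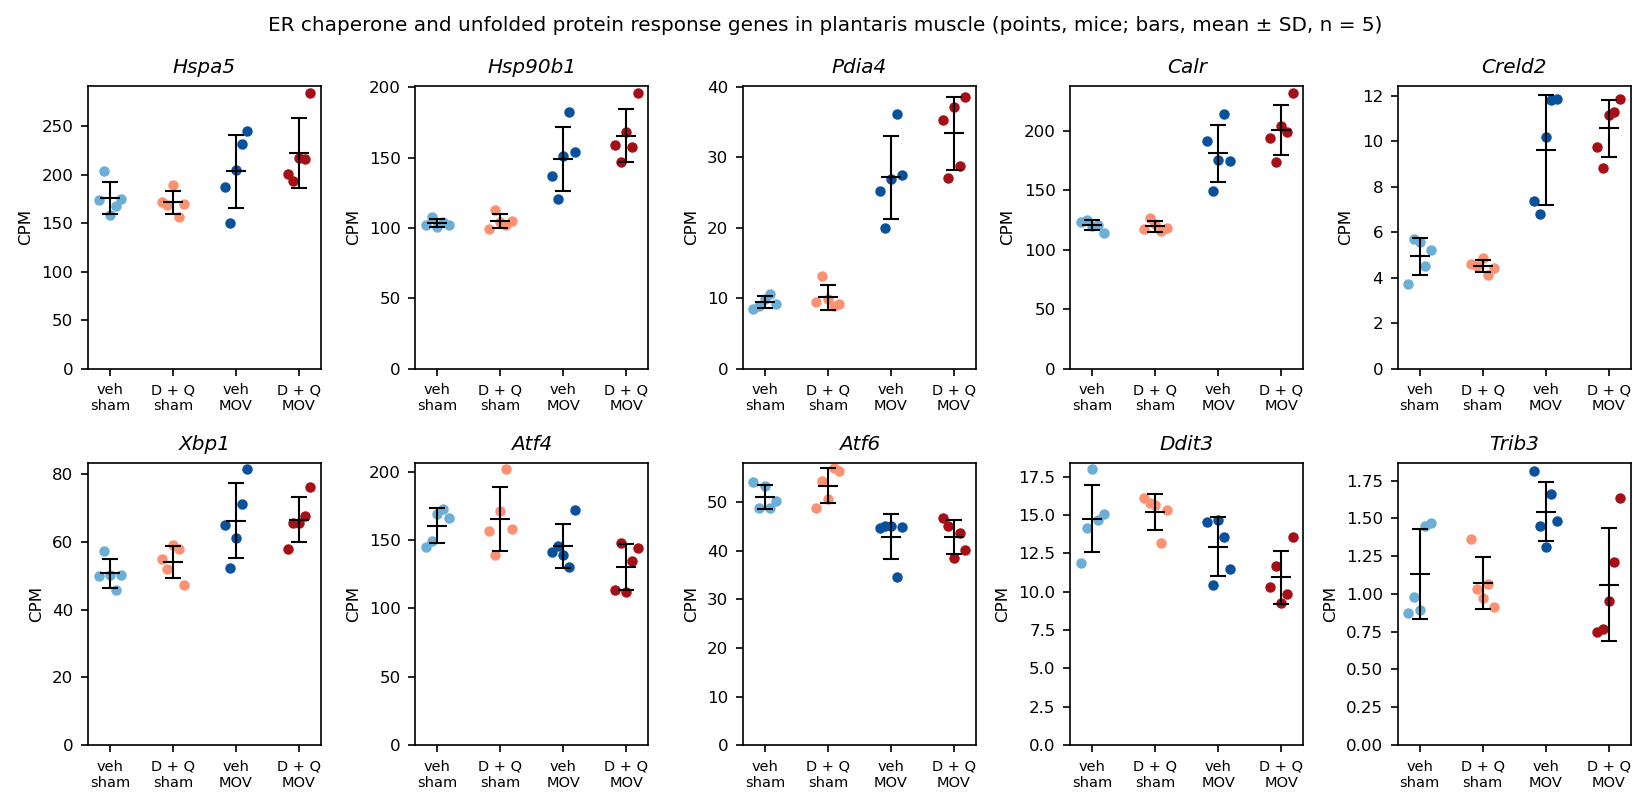
CPM of the 10 genes in each mouse (points) of each group, both sham groups on the left of a panel and both MOV groups on the right, with the mean and SD (bars, n = 5). All MOV points lie above all sham points with the same treatment for Hsp90b1, Pdia4, Calr and Creld2, and below them for Atf6, which rises instead of falling, short of a call, when mice are scaled by total counts only.

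Pdia4, a disulfide isomerase that forms and rearranges disulfide bonds in the ER, had the largest fold change of the 10 (chr6:47770077-47790462, minus strand). With vehicle it had 8.41, 8.86, 9.88, 10.6 and 9.22 CPM in the sham mice and 25.2, 19.9, 26.9, 36.2 and 27.5 CPM in the MOV mice. The lowest MOV mouse, replicate 2, was still well above the highest sham mouse. The change was 2.91-fold (log2 1.54, SE 0.14, edgeR adjusted p = 3.01e-07). With D + Q it had 9.47, 13.1, 9.84, 8.88 and 9.14 CPM in sham and 35.3, 27.1, 37.1, 28.7 and 38.6 CPM in MOV muscle. Sham replicate 2 stood above its group, and the MOV mice fell into a higher 3 and a lower 2, all above sham. This change was 3.41-fold (log2 1.77, SE 0.12, edgeR adjusted p = 5.66e-09).

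Creld2, a secreted and ER-resident protein with disulfide isomerase activity (chr15:88703795-88710890, plus strand), changed next most. In vehicle mice it measured 3.72, 5.69, 5.55, 4.52 and 5.23 CPM after sham surgery and 7.38, 6.78, 10.2, 11.8 and 11.9 CPM after MOV. Replicates 1 and 2 were the lower MOV mice and came close to the highest sham mouse without reaching it. The difference was 1.96-fold (log2 0.97, SE 0.18, edgeR adjusted p = 2.84e-04). In D + Q mice the values were 4.61, 4.51, 4.87, 4.12 and 4.42 CPM for sham and 9.74, 8.83, 11.1, 11.3 and 11.9 CPM for MOV. The sham mice were tightly grouped and far below every MOV mouse. The fold was 2.41 (log2 1.27, SE 0.12, edgeR adjusted p = 3.31e-08).

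Calr encodes calreticulin, the lumenal lectin that retains unfolded glycoproteins and binds calcium (chr8:85567946-85573667, minus strand). Vehicle sham mice had 124, 125, 120.2, 121 and 114 CPM and vehicle MOV mice 192, 149.5, 176, 215 and 175 CPM. Sham mice varied little, while MOV mice spread widely, with replicate 2 lowest and replicate 4 highest. Calr was 1.51-fold higher under MOV (log2 0.59, SE 0.0850, edgeR adjusted p = 2.54e-05). D + Q sham mice had 117, 126, 121, 115 and 118 CPM and D + Q MOV mice 194, 174, 204, 199 and 232 CPM, again with no overlap. There it was 1.72-fold higher (log2 0.78, SE 0.0669, edgeR adjusted p = 1.53e-08).

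Hsp90b1 encodes GRP94, the HSP90 of the ER (chr10:86526073-86541446, minus strand). Its level was 102, 108, 101, 104 and 102 CPM in vehicle sham and 137, 121, 151, 183 and 154 CPM in vehicle MOV mice. The groups did not overlap, and replicates 2 and 4 marked the ends of the MOV group as they did for Calr and Pdia4. The change was 1.45-fold (log2 0.53, SE 0.0916, edgeR adjusted p = 1.34e-04). With D + Q the level was 99.3, 113, 104, 102 and 105 CPM in sham and 159, 147, 168, 158 and 196 CPM in MOV mice, a 1.63-fold change (log2 0.70, SE 0.0697, edgeR adjusted p = 9.98e-08). MOV replicate 5 was the highest of the 20 mice. The locus shares its strand with Gm15344 and Gm54730 in the annotation, whose reads may be split with it.

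Hspa5 encodes BiP, the HSP70 of the ER and the usual marker of the response, and it had the smallest change of the 5 folding genes (chr2:34661982-34668880, plus strand). With vehicle, sham mice had 174, 204, 159, 168 and 175 CPM and MOV mice 187, 149.9, 204, 232 and 245 CPM. MOV replicate 2 was below every sham mouse and replicates 3, 4 and 5 were above all of them, replicate 3 by less than 1 CPM, so the groups overlapped. The log2 fold change of 0.22 (SE 0.12, 95% interval -0.028 to 0.47) was not called, with an edgeR adjusted p of 0.115. It was called without vehicle MOV replicate 2 (0.34, edgeR adjusted p = 0.00508) and with total counts only (0.60, edgeR adjusted p = 0.00200). With D + Q, sham mice had 172, 169, 189, 157 and 169.9 CPM and MOV mice 201, 194, 218, 216 and 285 CPM. The lowest MOV mouse stood just above the highest sham mouse, and MOV replicate 5 was far above the rest. This rise was 1.33-fold (log2 0.42, SE 0.0899, edgeR adjusted p = 7.31e-04). Rabepk overlaps Hspa5 on the opposite strand, and whether the counting used strand is not given in the sources used here.

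Among the transcription factors, Xbp1 was the one that rose in both treatments (chr11:5470606-5483027, plus strand). Its level with vehicle was 50.0, 57.3, 50.1, 45.7 and 50.2 CPM in sham and 65.0, 52.2, 61.0, 71.3 and 81.6 CPM in MOV mice. MOV replicate 2 fell within the sham range and the other 4 MOV mice lay above it. The change was 1.31-fold (log2 0.39, SE 0.10, edgeR adjusted p = 0.00384). With D + Q it was 54.8, 51.9, 58.9, 57.7 and 47.3 CPM in sham and 57.9, 65.4, 65.6, 67.5 and 76.3 CPM in MOV mice, where replicate 1 overlapped the sham mice. The change there was 1.26-fold (log2 0.34, SE 0.0744, edgeR adjusted p = 6.90e-04). Ccdc117 overlaps Xbp1 on the opposite strand.

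Atf6, whose product is both the sensor and the factor it releases (chr1:170532026-170696208, minus strand), was lower under MOV with TMM scaling and higher, though not called, with total counts only (log2 0.13 with vehicle and 0.085 with D + Q). The TMM-scaled levels with vehicle were 54.2, 48.8, 53.4, 48.8 and 50.4 CPM in sham and 44.8, 45.2, 45.1, 34.7 and 44.9 CPM in MOV mice. Every MOV mouse lay below every sham mouse, 4 of them close together and replicate 4 far lower. The fall was small, at log2 -0.25 (SE 0.0794, edgeR adjusted p = 0.0146). With D + Q the levels were 48.8, 54.4, 50.7, 57.0 and 56.5 CPM in sham and 46.9, 45.2, 38.5, 43.8 and 40.3 CPM in MOV mice, also without overlap, and the change was log2 -0.28 (SE 0.0679, edgeR adjusted p = 0.00158).

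Atf4, the factor downstream of PERK and of the other eIF2α kinases (chr15:80139372-80141745, plus strand), had 145, 149, 169, 173 and 167 CPM in vehicle sham and 141, 145, 139, 131 and 172 CPM in vehicle MOV mice. The groups overlapped, since MOV replicate 5 was near the top of the sham range. The log2 fold change of -0.13 (SE 0.0828, edgeR adjusted p = 0.178) was not called, and with total counts only it turned to a called rise of 0.24 (edgeR adjusted p = 0.0160). With D + Q, sham mice had 156, 139, 171, 202 and 158 CPM and MOV mice 113, 148, 112, 134 and 144 CPM. MOV replicates 1 and 3 were lowest, and the groups overlapped. Here the log2 fold change was -0.31 (SE 0.11, edgeR adjusted p = 0.0206), but it was not called without D + Q MOV replicate 1 (-0.25, edgeR adjusted p = 0.0521) or replicate 3 (-0.25, edgeR adjusted p = 0.0592), and with total counts only it was 0.058.

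Ddit3 encodes CHOP, a factor linked to cell death under lasting ER stress (chr10:127124268-127132163, plus strand). It had 11.9, 14.2, 17.98, 14.7 and 15.1 CPM in vehicle sham and 14.5, 10.4, 14.7, 13.6 and 11.5 CPM in vehicle MOV mice. The groups overlapped, with MOV replicates 2 and 5 below all sham mice. The log2 fold change was -0.18 (SE 0.13, 95% interval -0.45 to 0.090, edgeR adjusted p = 0.233), and 0.20 with total counts only. D + Q sham mice had 16.1, 15.8, 15.6, 13.2 and 15.3 CPM and D + Q MOV mice 10.3, 11.7, 9.24, 9.82 and 13.6 CPM. In the latter, replicate 5 alone reached into the sham range. This fall was log2 -0.44 (SE 0.11, edgeR adjusted p = 0.00149), and it was -0.072 and not called with total counts only. The Ddit3 span overlaps Gm20492 and Gm66222 on its own strand and Mars1, Mbd6 and Gm4189 on the other, so its reads could not be assigned with certainty.

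Trib3, a pseudokinase gene induced by ATF4 and CHOP (chr2:152179337-152191958, minus strand), had 0.873, 0.978, 0.892, 1.45 and 1.47 CPM in vehicle sham and 1.81, 1.45, 1.31, 1.66 and 1.48 CPM in vehicle MOV mice. The sham mice split into 3 low and 2 high, and the high 2 overlapped the MOV mice. The change was log2 0.46 (SE 0.25, 95% interval -0.079 to 1.00, edgeR adjusted p = 0.129), and 0.83 with total counts only (edgeR adjusted p = 0.0117). With D + Q it had 1.36, 1.04, 0.975, 1.07 and 0.914 CPM in sham and 0.746, 0.768, 0.950, 1.21 and 1.64 CPM in MOV mice, which ranged on both sides of sham. The log2 fold change there was 0.020 (95% interval -0.59 to 0.63, edgeR adjusted p = 0.956). With 14 to 45 reads in any mouse, changes of any size within these intervals remain possible.

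**Figure D3:**
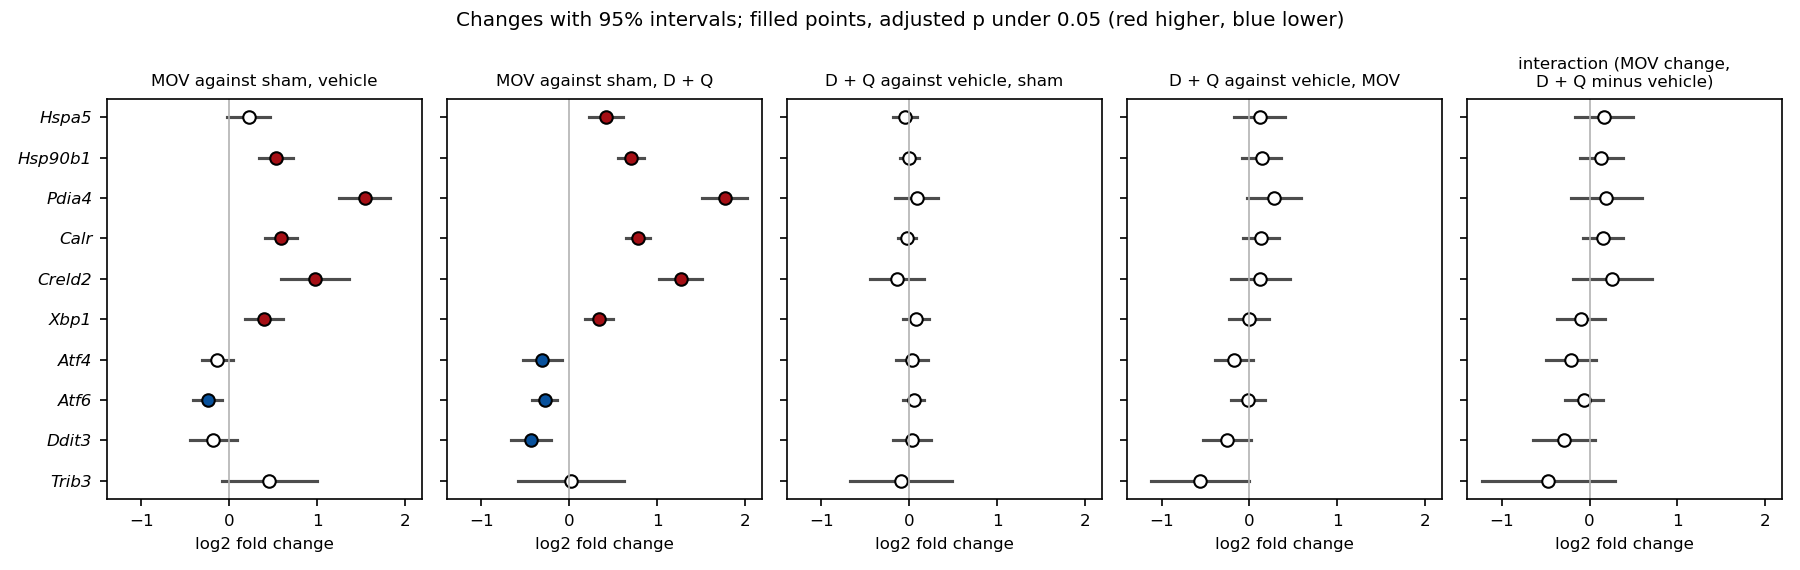
Log2 fold change of each gene (points) with its 95% interval (lines) in MOV against sham for each treatment, D + Q against vehicle for each surgery, and the interaction. Filled points passed an adjusted p under 0.05, red higher and blue lower, and they occur only in the MOV against sham panels, where the falls of Atf4 and Atf6 turn to rises and that of Ddit3 with D + Q shrinks to -0.072 when mice are scaled by total counts only.

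D + Q made no detectable difference to these genes under MOV. None of the 10 was called between D + Q MOV and vehicle MOV mice by edgeR, DESeq2 or limma-voom. Of 15238 genes tested, edgeR called 0% and DESeq2 called 10 genes, none of them described here. The paper reports many more differentially expressed genes between these groups with DESeq2, and the reason for this difference was not tested. Of the 10 genes described, 1 (Trib3) had an unadjusted p under 0.05, as did 8.79% of all genes. All 10 overlapped between the groups, whereas 1.44% of all genes did not. For Trib3 the log2 fold change of D + Q against vehicle was -0.56 (95% interval -1.12 to -0.0038, unadjusted p = 0.0487, edgeR adjusted p = 0.563). Of its D + Q MOV mice, 4 were below every vehicle MOV mouse and replicate 5 lay within their range. The folding genes had log2 fold changes above 0, from 0.11 for Hspa5 (95% interval -0.17 to 0.40) to 0.28 for Pdia4 (95% interval -0.025 to 0.59, edgeR adjusted p = 0.579). For Calr the interval was -0.077 to 0.34, for Hsp90b1 -0.084 to 0.36 and for Creld2 -0.21 to 0.46. Ddit3 had -0.26 (-0.53 to 0.015), Atf4 -0.18 (-0.39 to 0.039), Atf6 -0.015 (-0.20 to 0.18) and Xbp1 -0.0082 (-0.24 to 0.22), and the signs of the last 2 turned with the scaling. Changes of any size within these intervals remain possible with 5 mice in a group.

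Hspa5, Calr and Hsp90b1 had larger SDs in both MOV groups than in vehicle sham muscle. For Hspa5 the SD was 37.6 CPM in vehicle MOV and 36.1 CPM in D + Q MOV mice, against 16.8 CPM in vehicle sham mice. For Calr these SDs were 24.0, 21.0 and 4.10 CPM, and for Hsp90b1 22.9, 18.7 and 2.73 CPM. Without vehicle MOV replicate 2, the lowest mouse for all 5 folding genes, the log2 difference between D + Q and vehicle MOV was 0.021 for Hspa5, 0.020 for Creld2 and 0.19 for Pdia4.

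In sham muscle, no gene of the 10 was called between D + Q sham and vehicle sham mice by any of the 3 tools, and none had an unadjusted p under 0.05, while edgeR called 0.215% of 13926 genes and 10.2% had an unadjusted p under 0.05. All 10 overlapped, and 2.05% of all genes did not. The log2 fold changes ran from -0.14 for Creld2 (95% interval -0.45 to 0.17) to 0.085 for Pdia4 (95% interval -0.16 to 0.33), and the intervals of Calr (-0.13 to 0.073) and Hsp90b1 (-0.10 to 0.10) were the narrowest. The interaction, which tests whether the MOV change differed between D + Q and vehicle, called none of the 10, and none had an unadjusted p under 0.05, against 0.0127% and 5.71% of 15700 genes. Ddit3 had the lowest adjusted p there (0.864, edgeR, log2 -0.29, 95% interval -0.64 to 0.057). Hspa5, Atf4 and Ddit3 were called in 1 treatment and not in the other, but the difference between treatments did not pass this test for any of them. The 4 comparisons share groups, since each group of mice serves in a treatment and a surgery comparison.

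The wider pathway was read from 10 lists of 162 genes, all with a row and 156 of them tested with vehicle (Clgn, Derl3, Bhlha15, Slc7a11, Fgf21 and Gdf15 fell short of the count minimum). With vehicle, 77 were higher and 34 lower in MOV than in sham muscle, with a median log2 fold change of 0.25, and with D + Q 86 were higher and 37 lower, with a median of 0.30. Over all genes tested, 30.7% were higher and 29.8% lower with vehicle and 34.4% and 30.9% with D + Q, the background for the count of each list. With total counts only the splits were 119 higher and 11 lower and 119 higher and 13 lower. None of the listed genes was called between D + Q and vehicle in either surgery or in the interaction by edgeR, DESeq2 or limma-voom. An unadjusted p under 0.05 was found for 13 of 156 in MOV, 12 of 155 in sham and 6 of 156 in the interaction, shares below the 8.79%, 10.2% and 5.71% of all genes tested.

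Collagen folding and ER calcium binding genes had the largest median change, 1.80 with vehicle and 1.86 with D + Q on the log2 scale, with 14 of 15 higher and 1 lower in both (14 and 0 with vehicle and 15 and 0 with D + Q with total counts only). The largest rises were in the peptidyl-prolyl isomerases Fkbp10 (3.54 with vehicle and 3.55 with D + Q, edgeR adjusted p = 3.40e-08 and 1.22e-09) and Fkbp11 (3.47 with vehicle and 3.47 with D + Q), the first of which assists procollagen folding. Fkbp11 had only 3 to 9 counts in vehicle sham mice, 3 to 18 in D + Q sham mice and 40 to 114 in vehicle MOV mice. It passed the count minimum through the MOV mice, so the size of its rise is uncertain. Fkbp10 had 2.53, 2.703, 2.93, 4.23 and 2.11 CPM in vehicle sham and 35.4, 21.3, 36.5, 40.6 and 33.8 CPM in vehicle MOV mice. The groups were far apart. Sdf4, a calcium-binding protein of the Golgi lumen, was the one that fell (-0.29 with vehicle and -0.18 with D + Q), and it turned to 0.090 and 0.19 with total counts only.

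Protein disulfide isomerases and oxidases, the family of Pdia4, were higher in 10 of 17 and lower in 1 with vehicle (median 0.52) and higher in 15 and lower in 1 with D + Q (median 0.64), and 16 were higher and 0 lower in each with total counts only. Pdia5 (2.57 with vehicle and 2.86 with D + Q) and the ER peroxiredoxin Prdx4 (1.94 with vehicle and 2.02 with D + Q) rose most, and the membrane-bound Tmx2 fell (-0.53 with vehicle and -0.40 with D + Q), though it was not called with total counts only (-0.15 and -0.038). Of the cochaperones of BiP and GRP94, 9 of 16 were higher and 1 lower with vehicle (median 0.24), and 12 were higher and 2 lower with D + Q (median 0.33), where total counts only gave 14 higher and 0 lower in each. Cnpy4 (1.65 with vehicle and 1.90 with D + Q) and Manf, a secreted ER stress protein that binds BiP (1.30 with vehicle and 1.20 with D + Q), rose most with vehicle, while with D + Q Sdf2l1 (1.25) was above Manf, and no gene of this list fell with vehicle without overlap.

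In the calnexin cycle, which trims and re-checks the sugars of glycoproteins together with calreticulin, 7 of 11 were higher and 2 lower in each treatment (medians 0.36 and 0.47), and 8 and 9 were higher and 0 lower with total counts only. The mannosidase-like Edem1 (1.52 with vehicle and 1.70 with D + Q) and Edem2 (0.87 with vehicle and 0.65 with D + Q), which pass misfolded glycoproteins on for disposal, rose most with vehicle, though with D + Q the glucosidase Mogs (0.69) was above Edem2, while the folding sensor Uggt1 fell (-0.38 with vehicle and -0.41 with D + Q), though it was not called with total counts only (-0.0047 and -0.044). Translocon, signal peptidase and KDEL receptor genes were higher in 8 of 16 and lower in 2 with vehicle (median 0.18), and higher in 9 and lower in 2 with D + Q (median 0.20), against 13 higher and 0 lower in each with total counts only. Kdelr3, a receptor that returns ER proteins from the Golgi, rose most (3.62 with vehicle and 3.53 with D + Q), followed by the channel subunit Sec61a1 (1.68 with vehicle and 1.81 with D + Q), and the signal peptidase subunit Spcs2 fell (-0.26 with vehicle and -0.33 with D + Q) but turned to 0.11 and 0.035 with total counts only.

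Genes of ER-associated degradation, which removes misfolded proteins, were split evenly under TMM scaling. With vehicle 6 of 18 were higher and 6 lower, and with D + Q 5 were higher and 5 lower, with medians of -0.0013 and -0.0039. With total counts only, 15 were higher and 1 lower with vehicle and 14 and 1 with D + Q. The lectin Os9 rose (1.03 with vehicle and 1.00 with D + Q), as did the ubiquitin-conjugating enzyme Ube2g2 (0.44 with vehicle and 0.35 with D + Q), and Herpud1, a commonly used response gene of this arm, fell (-0.95 with vehicle and -0.82 with D + Q, edgeR adjusted p = 2.04e-07 and 3.97e-09). Herpud1 had 112, 129.6, 118, 126 and 114 CPM in vehicle sham and 66.1, 72.8, 59.0, 56.5 and 55.6 CPM in vehicle MOV mice. All MOV mice were lower.

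Sensors and their processing enzymes were higher in 7 of 15 and lower in 2 with vehicle (median 0.24) and higher in 8 and lower in 1 with D + Q (median 0.32), against 12 and 13 higher and 0 lower with total counts only. The ER-tethered factor Creb3l1 rose most (2.59 with vehicle and 2.28 with D + Q), and Eif2ak3, which encodes PERK, rose by 0.91 with vehicle and 1.05 with D + Q, while the heme-regulated eIF2α kinase Eif2ak1 fell (-0.45 with vehicle and -0.46 with D + Q), though it was not called with total counts only (-0.079 and -0.094). Of the ATF4 and CHOP targets, 11 of 29 were higher and 9 lower in each treatment, near the shares over all genes tested, with medians of 0.14 and 0.00064, and 19 higher and 4 lower with vehicle and 18 and 6 with D + Q with total counts only. The serine synthesis enzyme Psat1 (2.73 with vehicle and 2.33 with D + Q) and the stress factor Atf3 (2.66 with vehicle and 1.88 with D + Q) rose most with vehicle, though with D + Q Phgdh (2.32), also of serine synthesis, was above Atf3, and the lipoprotein receptor Vldlr fell (-1.39 with vehicle and -1.25 with D + Q).

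Calcium store genes of the sarcoplasmic reticulum were mostly lower, with 2 of 9 higher and 7 lower in each treatment (medians -0.50 and -0.47). With total counts only, 3 of the 9 were lower in each treatment and the medians were -0.12 and -0.11. The pump of fast fibers, Atp2a1, fell (-0.97 with vehicle and -1.01 with D + Q), and the calsequestrin Casq2 of slow and cardiac fibers rose (1.87 with vehicle and 1.56 with D + Q), as did Atp2a2, the pump of slow fibers (1.68 and 2.11). The cytosolic and mitochondrial counterparts of BiP and GRP94 were higher in 3 of 10 and lower in 3 with vehicle (median -0.051) and higher in 3 and lower in 7 with D + Q (median -0.24), and with total counts only the medians turned to 0.32 and 0.12. Hspa1b (2.44 with vehicle and 1.98 with D + Q) and Hspa1a (1.77 with vehicle and 1.43 with D + Q) rose, although these near-identical copies share reads and their split is uncertain, and the mitochondrial HSP70 Hspa9 fell (-0.77 with vehicle and -0.80 with D + Q).

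**Figure D4:**
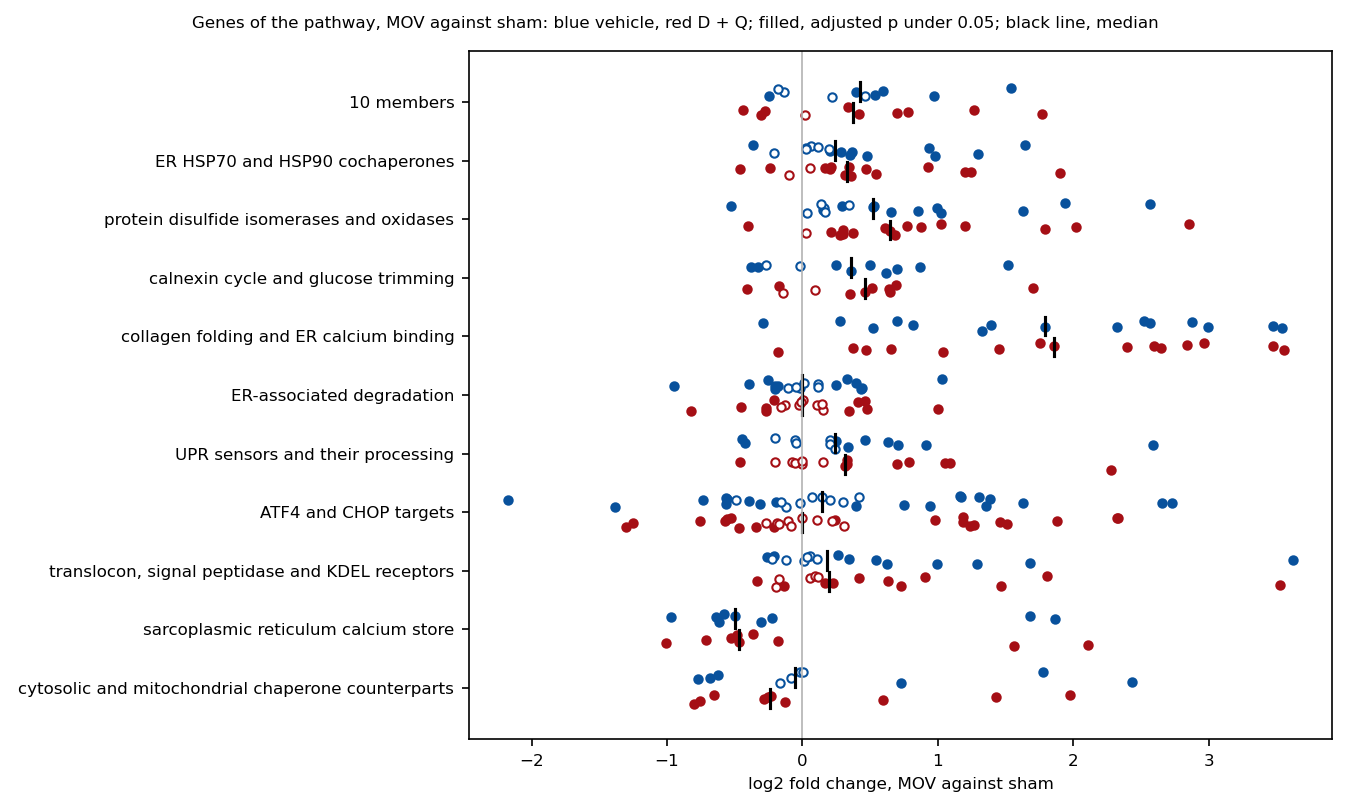
Log2 fold change in MOV against sham for each gene (points) of the 10 genes described and of 10 pathway lists, blue with vehicle and red with D + Q, filled where the adjusted p was under 0.05, with the list's median as a black line. Collagen folding genes have medians of 1.80 and 1.86, and ER-associated degradation genes sit about 0 under TMM scaling, against 0.37 and 0.36 with total counts only.

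Marker genes of several other cell types differed with surgery, and their part in the changes was not tested. As background for the counts of markers, 30.7% of all genes tested were higher and 29.8% lower with vehicle. With D + Q these shares were 34.4% and 30.9%. Counts near these shares, or out of a few tested markers, are not read as changes of a cell type. The 8 fibroblast markers summed to 196 to 245 CPM in vehicle sham and 584 to 1258 CPM in vehicle MOV mice, and to 219 to 329 CPM in D + Q sham and 974 to 1170 CPM in D + Q MOV mice, with 7 of 8 higher under MOV with vehicle and 8 of 8 with D + Q. Macrophage markers summed to 57.7 to 147 CPM in vehicle sham and 274 to 817 CPM in vehicle MOV mice, with 7 of 8 higher with vehicle and 8 of 8 with D + Q, and the lowest MOV sum belonged to replicate 2. Endothelial markers were higher in 6 of 8 in both treatments and satellite cell markers in 5 of 6, with 1 of these 6 lower with D + Q. No marker of these 4 lists was at the floor of 3 counts. Muscle fiber markers were lower in 5 of 8 with vehicle and 6 of 8 with D + Q. Several of these markers, such as Myh4 and Myh1, are genes of fast fibers, and none is particular to slow fibers. In its D + Q experiment on old mice, the paper reports that MOV shifted fibers from glycolytic to oxidative types. In its time course of adult and old mice, it reports that fiber types did not differ in distribution. The part of such a shift in the lower markers was not tested. B and plasma cell markers, of interest because plasma cells are rich in ER, had sums of 0.863 to 2.47 CPM in vehicle sham and 1.86 to 8.71 CPM in vehicle MOV mice, and Tnfrsf17 was at or under 3 counts in every mouse of these 2 groups. With vehicle, T and NK cell markers had 1 of 2 tested higher, neutrophil markers 2 of 4, Schwann cell markers 1 of 5, erythroid markers 0 of 5, and smooth muscle and pericyte markers 1 of 5 with 1 lower, while 3 of 3 tested adipocyte markers were lower. With D + Q, T and NK cell markers had 3 of 4 tested higher, neutrophil markers 1 of 3 higher and 1 lower, Schwann cell markers 1 of 5 higher and 1 lower, erythroid markers 0 of 5, smooth muscle and pericyte markers 1 of 5 higher and 2 lower, and adipocyte markers 1 of 3 lower. Of the B and plasma cell markers, 1 of 3 tested was higher with vehicle and 1 of 2 with D + Q. In the fit of sham mice alone, 0 of the 7 B and plasma cell markers and 1 of the 6 T and NK cell markers passed the count minimum. Most of those tested in MOV against sham thus passed through the MOV mice, so their counts of higher markers are no evidence about these cells.

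Within groups, the 10 pairs of folding genes had correlations above 0 from mouse to mouse, of very unequal size. After the group mean of log2 CPM was subtracted, Pearson's r over the 20 mice ran from 0.51 to 0.87 and Spearman's rho from 0.29 to 0.75 over these pairs. It was 0.87 between Hsp90b1 and Calr (rho 0.54), 0.84 between Hsp90b1 and Pdia4 (rho 0.73), 0.83 between Hspa5 and Hsp90b1 (rho 0.75) and 0.81 between Hspa5 and Xbp1 (rho 0.66). Without the 2 mice farthest from the median of the first gene, these values were 0.72, 0.69, 0.67 and 0.70. The lowest pairs were Calr with Creld2 (0.51, rho 0.29) and Hspa5 with Pdia4 (0.54, rho 0.41), which fell to 0.16 and 0.31 without the farthest mice, and Hspa5 with Calr went from 0.72 (rho 0.44) to 0.46. Atf6 had r from -0.61 to -0.51 with the 5 folding genes and from -0.49 to -0.35 without the farthest mice, the weakest with Hsp90b1 (-0.35) and Calr (-0.36). Atf4 had r between -0.35 and 0.052 with them. SDs of Hsp90b1 and Calr were larger in both MOV groups than in both sham groups, so MOV mice weigh most in their r. Vehicle MOV replicates 2 and 4, the ends of that group for Hsp90b1, Calr and Pdia4, also had its lowest and highest fibroblast and macrophage marker sums. The part of this in the correlations was not tested. These correlations are descriptions over 20 mice that share library preparation and scaling, and no p is given. Correlations over all pairs of genes were not taken, so these values are not shown to be particular to the folding genes.

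Among 15699 other genes, those most like Hspa5 by the same measure were Magt1, a subunit of the oligosaccharyltransferase of the ER (r = 0.95), the disulfide isomerase Pdia6 (r = 0.86) and Tmem39a (r = 0.84). All genes named here were picked for the highest r of so many, which by itself gives high values. D + Q MOV replicate 5 was the highest mouse of its group for Hspa5, Magt1, Pdia6 and Tmem39a, and r without it was not taken. The likeness to Hspa5 is within groups only, and between groups Magt1 went the other way. Its mean was 39.8 CPM in vehicle sham and 31.1 CPM in vehicle MOV mice, and 39.3 and 32.7 CPM with D + Q. The Hspa5 means were 175.7 and 203.5 CPM with vehicle and 171.4 and 222.7 CPM with D + Q. Those most like Atf4 were Kdm5c (r = 0.81), Akirin2 (r = 0.80) and Gabarapl1 (r = 0.80), and those most like Trib3 were Rai14 (r = 0.84) and A930007A09Rik (r = 0.82). A930007A09Rik had 0 to 4 counts in D + Q sham mice and 2 to 10 in vehicle sham mice, so its r rests on few reads. None of these 5 genes named for Atf4 and Trib3 was in the pathway lists.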

How the data were processed

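The authors aligned plantaris RNA-seq reads with STAR 2.7.8a to GRCm39, estimated gene counts with the expectation-maximization quantifier of Partek, and deposited these estimated counts without normalization, 1 column per mouse. Of the values, 29.8% were not whole and were rounded; this bears most on low genes such as Trib3. Totals of 17887532 to 26234518 counts limit the precision of low genes.

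The members and gene lists were chosen with earlier results of these data known. Groups came from the sample titles. Nothing in the labels beyond the titles tells whether replicates share cages or days, so p-values measure the spread between these mice.

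Each comparison was tested on its own 10 mice with edgeR 4.0.16 (R 4.3.3; quasi-likelihood, robust, TMM), requiring of a gene 10 or more counts in 5 or more mice of the fit, with Benjamini-Hochberg adjustment over all genes tested and a threshold of 0.05; the interaction used all 20 mice. SEs are the log2 fold change divided by the square root of F. The test was also run on simulated counts with few changed genes, balanced in direction, so that check does not bear on the choice of scaling.

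CPM were TMM-scaled over 20 mice, and length is that of the Ensembl canonical transcript (GENCODE vM39, GRCm39). From each list, the 2 largest rises and the largest fall among called genes without overlap with vehicle were named; Atp2a2, Sdf2l1, Mogs, Phgdh and Dnajb11 were named after their values were seen. One gene that the rule on likeness names is not reported here. Symbols of 5 listed genes were matched through RefSeq synonyms. Planned protein end motifs were not read, since no protein table was used here.

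Alternatives were RLE factors, total counts only, DESeq2 1.42.0, limma-voom with quality weights (limma 3.58.1), no count minimum, at least 50 counts in 5 mice, all 20 mice in one fit, the replicate number as a block, and each mouse left out.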

Additional observations from a re-analysis of the deposited data

Results flagged for a closer look

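Among 40 gene and group combinations of 5 mice, 4 held a mouse whose gap to its nearest neighbor exceeded 0.71 of the group's range, and chance gives about 1 in 20. Hspa5 was 285 CPM in D + Q MOV replicate 5, where the next mouse had 218 CPM. Pdia4 was 13.1 CPM in D + Q sham replicate 2, with the next at 9.84 CPM. The lowest Atf6 value, 34.7 CPM, was in vehicle MOV replicate 4, with the next at 44.8 CPM. The lowest Ddit3 value among D + Q sham mice was 13.2 CPM in replicate 4, with the next at 15.3 CPM. Without D + Q MOV replicate 5, Hspa5 was still called with D + Q.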

How the results depend on the processing

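Calls among the 10 genes numbered 6 with vehicle and 9 with D + Q in MOV against sham, 0 elsewhere, and with the replicate block they were again 6, 9 and 0. In most cases same-numbered mice did not deviate together (correlations from -0.21 to 0.23), so their numbers were not read as pairs. The exceptions were replicate 4 in MOV against sham with vehicle (0.23, against at most 0.091 with another number) and 2 in D + Q against vehicle. These were replicate 2 in MOV (0.19 against 0.064) and replicate 1 in sham (0.095 against 0.059). Leaving out each mouse gave 6 to 7 calls with vehicle and 8 to 9 with D + Q. Of 50 gene results, 35 kept their sign under every alternative run and 15 did not. With total counts only, MOV against sham turned to 0.24 (Atf4), 0.13 (Atf6) and 0.20 (Ddit3) with vehicle and to 0.058 (Atf4) and 0.085 (Atf6) with D + Q, because this scaling moved the median of all genes to 0.36 and 0.39. With it, D + Q against vehicle turned to 0.044 (Xbp1) and 0.043 (Atf6) in MOV and to 0.0072 (Calr) in sham. Trib3 in MOV against sham with D + Q turned to -0.047 with limma-voom, -0.011 with the replicate block, -0.025 with all 20 mice in one fit and ranged from -0.18 to 0.14 with each mouse left out. D + Q against vehicle in MOV turned to 0.0021 for Xbp1 with the replicate block and ranged from -0.084 to 0.083 for Xbp1 and from -0.087 to 0.024 for Atf6 with each mouse left out. In sham, Atf4 turned to -0.022 with limma-voom, and the left-out ranges crossed 0 for Atf4 (-0.051 to 0.086), Hspa5 (-0.088 to 0.013), Hsp90b1 (-0.023 to 0.022), Pdia4 (-0.020 to 0.13), Ddit3 (-0.042 to 0.11) and Trib3 (-0.20 to 0.020). The cause was not tested for changes other than those of the scaling. Depth limits Trib3 most, which had no value under the minimum of 50 counts.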

Other observations

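The ERSE letters were found in the promoters of 37 of the 27025 genes in the RefSeq table. Of the 33 beside the members described, 15 were tested with vehicle, and 6 were higher and 1 lower in MOV than in sham muscle (40.0% higher, against 30.7% of all genes tested). With D + Q 8 of 15 were higher and 1 lower (53.3% higher, against 34.4%). The medians of these 15 were 0.35 and 0.47 on the log2 scale. They are not replicates, were looked at after the changes of the folding genes were known, and no test was made. Of the pathway lists, Dnajc3, Pdia6, Ero1b, Canx, Derl3 and Syvn1 held the element. Pdia6 (0.85 with vehicle and 0.88 with D + Q) and Canx (0.36 and 0.47) were called higher in both treatments by edgeR, Dnajc3 (0.20 and 0.47) and Ero1b (0.35 and 0.77) with D + Q, though no listed gene was called in the interaction, and Syvn1 (0.11 and 0.16) in neither. The shorter ERSE-II was held by 2 listed genes, which went opposite ways. Herpud1, which fell, has it 52 to 42 bases before its start at chr8:95113005-95113015, plus strand in GRCm39, and Dnajb11, a cochaperone of BiP that was higher (0.37 with vehicle and 0.31 with D + Q), has it at chr16:22676602-22676612, plus strand, in an untranslated exon of its own. The ERSE sites of Pdia6 (chr12:17316492-17316510, plus strand) and Canx (chr11:50216627-50216645, minus strand) and both ERSE-II sites are shown so that they can be compared letter by letter, with the defining letters in capitals.
Pdia6: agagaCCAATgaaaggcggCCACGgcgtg
Canx: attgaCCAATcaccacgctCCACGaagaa
Herpud1: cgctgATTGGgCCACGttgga
Dnajb11: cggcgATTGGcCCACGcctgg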
